A study of Mus musculus with 8 samples.

Results

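In all, 10 chemokine and cytokine genes were followed in cultured B16F10 cells, a mouse melanoma line, by RNA sequencing of 8 libraries. The genes are *Csf1*, *Lif*, *Il6*, *Tnf*, *Ccl2*, *Ccl5*, *Ccl7*, *Cxcl1*, *Cxcl10* and *Cxcl16*. They were picked by name as secreted signals a tumor cell can send to the immune system and stroma, and they are 10 of the 55414 genes in the expression table. The values are TPM, a relative transcript level corrected for transcript length and library size. Only 4 of the 10 genes, *Csf1*, *Lif*, *Ccl5* and *Cxcl10*, reached at least 1 TPM in at least 2 libraries and entered the test. The same filter kept 13526 genes in all. The other 6 genes were under 1 TPM in every library.

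The libraries form 4 groups of 2, and cyclophilin D (CypD), the mitochondrial peptidyl-prolyl isomerase encoded by *Ppif*, is the protein the study altered. WT cells and CypD KO cells were kept for 24 h at 21% O2. The knockout was made with CRISPR/Cas9, and stably transfected clones were selected in puromycin. Control cells carry pcDNA without an insert and CypD OE cells carry pcDNA with *Ppif*. Both were selected in G418 as resistant clones and kept for 24 h at 1% O2. Neither the labels nor the methods say whether a line is 1 clone or whether the 2 libraries of a group came from separate cultures. The p-values therefore measure the spread between these libraries, which may be technical. CypD KO was compared with WT, and CypD OE with Control. Unlike WT, the CypD KO cells were transfected and drug-selected as clones. These steps, differences between clones and the loss of CypD cannot be told apart in that comparison. In CypD OE against Control, differences between clones and the insert cannot be told apart. Control was also compared with WT, but these cells differ in oxygen, in the vector and in the drug selection, and these cannot be told apart.

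*Ppif* was read in every library as a check of the labels. Its levels were 50.68 and 49.99 TPM in WT, 10.44 and 12.11 TPM in CypD KO, 44.59 and 42.25 TPM in Control and 50.29 and 49.28 TPM in CypD OE. In CypD KO it was lower than in WT, with a log2 fold change of -2.07 (SE 0.07, limma adjusted p = 3.81e-06). For CypD OE the mean was 1.15 times that of Control, with a log2 fold change of 0.19 (SE 0.07, limma adjusted p = 0.0794), so the call was not reached. It was reached when either CypD KO library was left out (adjusted p = 0.0325 and 0.033). The label CypD OE is therefore used below as a name for these libraries and not as a measured rise of the transcript. The paper reports overexpression of CypD protein in its resistant clones by western blot, and protein was not measured here.

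Depth was similar in all libraries. TPM holds no total, so it was estimated from the low values, which fall close to whole numbers of fragments. At an effective transcript length of 1000 bases, 1 sequenced fragment was worth between 0.0817 and 0.0973 TPM. The 7 melanocyte markers (*Mlana*, *Pmel*, *Tyr*, *Tyrp1*, *Dct*, *Mitf* and *Sox10*) were all tested, and their summed level was 15700 to 15800 TPM in WT, 12400 to 12600 TPM in CypD KO, 20400 to 21000 TPM in Control and 13600 to 13800 TPM in CypD OE. *Tyrp1*, *Dct* and *Pmel* carried most of the sum, and single markers differed from it. *Tyr*, the gene for tyrosinase, was higher in CypD KO than in WT (mean 157 and 39.3 TPM, log2 difference 1.97, SE 0.07, limma adjusted p = 4.02e-06). In CypD OE, *Sox10* was higher than in Control (0.2, SE 0.03, adjusted p = 0.00241), and *Mlana* differed by 0.03 (SE 0.02, adjusted p = 0.286). Lymphocyte markers summed to at most 0.23 TPM in any library, and 6 of the 7 were listed at 0 in all. In bulk RNA, a change in the share of cells that use a gene and a change in RNA per cell cannot be told apart.

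Chemokines are small secreted proteins that direct the migration of leukocytes through G protein-coupled receptors. The CC family, such as *Ccl2* and *Ccl5*, acts mostly on monocytes, macrophages and T cells, and the CXC family acts on neutrophils (*Cxcl1*) or on activated T and NK cells (*Cxcl10*). Cytokines of the IL-6 family, including LIF and IL-6, signal through a receptor chain shared by the family, gp130, to JAK kinases and STAT3. CSF1 is the growth factor for macrophages, and TNF activates NF-kB. NF-kB, AP-1, interferon-regulated factors and hypoxia-inducible factors are all known regulators of such genes, and many of the transcripts are short-lived.

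Such factors can bind near the start sites of genes, so start regions are shown where available, and binding in these cells was not measured. RefSeq (build GRCm38.p6, an older build than the GRCm39 of the expression values) gave a promoter window, from 250 bases before the start site to 50 bases after it, for 6 of the 10 genes: *Csf1*, *Il6*, *Cxcl1*, *Cxcl10*, *Lif* and *Tnf*. *Ccl2*, *Ccl5*, *Ccl7* and *Cxcl16* had no entry. The windows of the 3 tested genes with an entry are printed 5′ to 3′ on the strand of the gene, at chr11:4257318-4257617 (plus strand) for *Lif*, chr3:107760420-107760719 (minus strand) for *Csf1* and chr5:92348840-92349139 (minus strand) for *Cxcl10*. Capitals mark matches to the motifs searched.
Lif: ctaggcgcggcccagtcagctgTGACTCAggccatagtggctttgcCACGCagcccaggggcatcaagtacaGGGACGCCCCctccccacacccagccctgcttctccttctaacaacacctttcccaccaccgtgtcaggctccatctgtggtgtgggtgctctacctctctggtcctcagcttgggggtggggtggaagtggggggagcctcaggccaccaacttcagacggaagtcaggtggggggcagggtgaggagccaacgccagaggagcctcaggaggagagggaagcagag
Csf1: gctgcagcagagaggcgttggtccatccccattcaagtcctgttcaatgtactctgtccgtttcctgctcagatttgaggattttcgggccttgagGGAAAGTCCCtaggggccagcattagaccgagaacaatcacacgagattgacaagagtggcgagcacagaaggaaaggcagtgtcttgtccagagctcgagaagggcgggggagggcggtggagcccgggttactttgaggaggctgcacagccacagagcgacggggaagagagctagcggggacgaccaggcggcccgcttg
Cxcl10: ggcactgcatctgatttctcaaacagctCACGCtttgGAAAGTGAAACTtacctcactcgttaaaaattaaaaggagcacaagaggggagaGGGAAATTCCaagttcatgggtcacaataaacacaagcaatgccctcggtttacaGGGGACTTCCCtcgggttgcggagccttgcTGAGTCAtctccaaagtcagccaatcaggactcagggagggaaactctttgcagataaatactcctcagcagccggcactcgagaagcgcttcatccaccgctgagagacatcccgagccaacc

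The motifs, searched on both strands, were both core forms of the hypoxia response element (ACGTG and GCGTG), AP-1 (TGANTCA), STAT (TTCNNNGAA), TEAD (CATTCC), the kappaB consensus, and the interferon-stimulated response element (ISRE) in its full consensus and as its core (GAAA, any 2 bases, then GAAACT), which was added after the windows were read. In the *Lif* window an AP-1 match lay 228 bases before the start site, a GCGTG match 204 bases before it and a kappaB match 178 bases before it. The *Csf1* window held a single match, to kappaB, 154 bases before the start site. The *Cxcl10* window held GCGTG at 222, the ISRE core at 213, kappaB at 159, an overlapping pair of kappaB matches at 104 and 103, and AP-1 at 74 bases before the start site. A kappaB match was present in 5 of the 6 windows, including those of *Il6* and *Cxcl1*, and in 8.46% of all 32851 promoter windows of this length. AP-1 was present in 3 of 6 windows (*Cxcl10*, *Il6* and *Lif*) against 7.81% of all. GCGTG was present in 2 of 6 windows against 32.4%, and ACGTG in the *Cxcl1* window only against 19.6%. The ISRE core was present in the *Cxcl10* window alone of the 6 and in 0.271% of all. Because it was added with the windows already read, this match carries no weight. None of the 6 windows matched the letters searched for STAT, TEAD or the full ISRE consensus, which were found in 8.3%, 14.7% and 0.17% of all windows. These are matches of letters, and binding was not measured.

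Of the 10 genes, 3 were higher in CypD KO than in WT and 1 was lower, with *Lif* about 21.6 times and *Csf1* 2.67 times the WT mean in TPM. *Ccl5* was also higher, from a few fragments, and *Cxcl10* fell to 0.473 of its WT mean. In the libraries labelled CypD OE, *Lif* and *Cxcl10* were higher than in Control and *Ccl5* was lower. *Cxcl10* was the only one of the genes called between Control and WT, where it was lower. The background of these calls was high. In CypD KO against WT 30.1% of all tested genes were called higher and 18.4% lower, in CypD OE against Control 19.0% higher and 18.3% lower, and in Control against WT 12.1% higher and 12.1% lower. The split of the KO calls depends on the scaling: with median-of-ratios size factors, which moved the median log2 difference of all genes from 0.09 to 0, 3290 genes were called higher and 3364 lower in place of 4066 and 2486. The calls of the 4 genes had the same direction under both scalings. *Lif* reached 1 TPM in CypD KO and CypD OE libraries only, so it passed the filter only through groups in which it was called higher. *Ccl5* reached 1 TPM in both CypD KO libraries, in WT replicate 1 (1.09 TPM) and in Control replicate 2 (1.91 TPM). The number of tested genes that were called therefore carries no weight of its own. WT serves in the comparisons with CypD KO and with Control, and Control in those with CypD OE and with WT, so the comparisons are not independent.

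**Figure D1:**
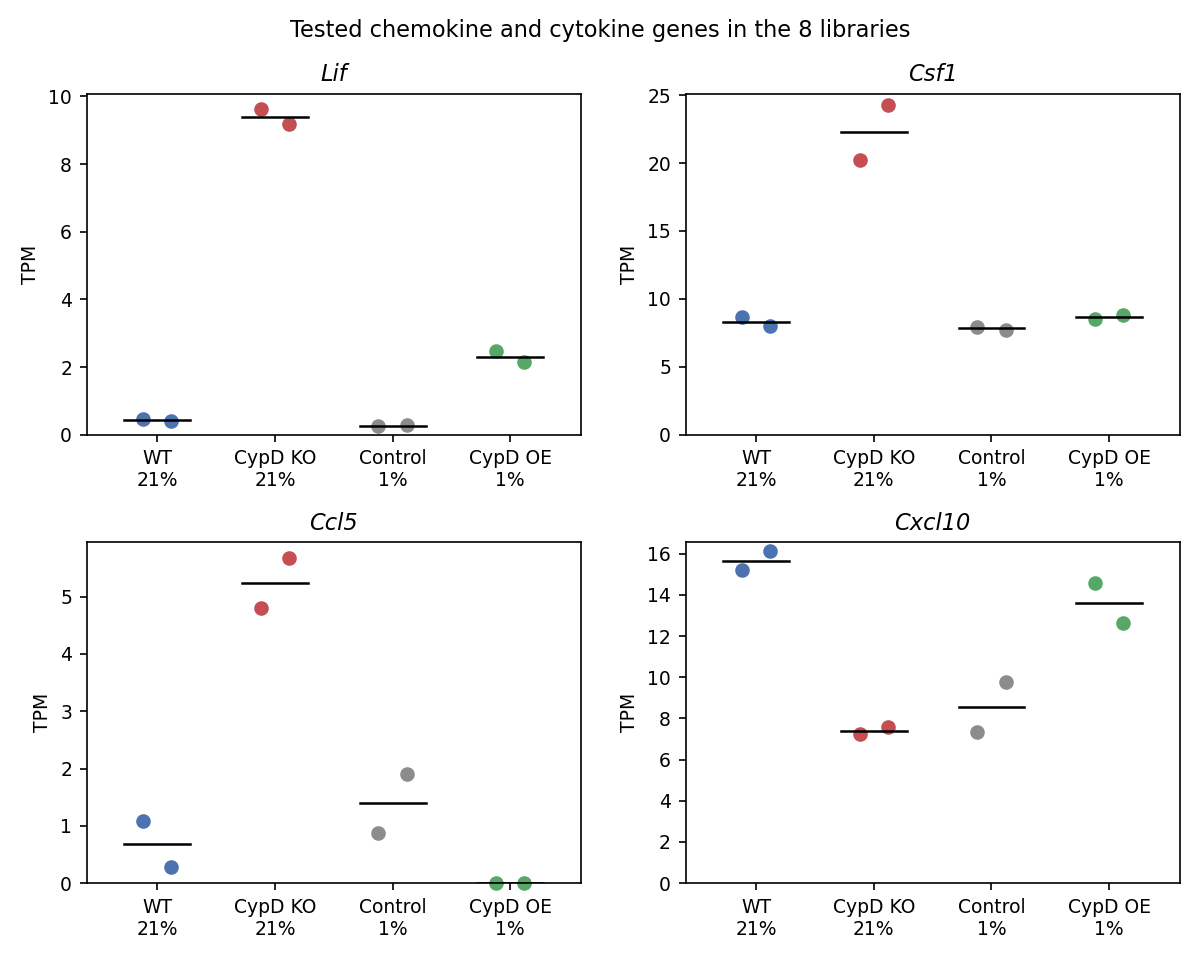
TPM (vertical axis, linear, from 0) of the 4 tested genes in each library, by group and oxygen level; each point is 1 library and each line the mean of 2. *Lif*, *Csf1* and *Ccl5* are highest in CypD KO, and *Cxcl10* is near 15 TPM in WT and lower in CypD KO and Control.

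*Lif* (leukemia inhibitory factor, ENSMUSG00000034394, GRCm39 chr11:4207557-4222514, plus strand, with 4 exons in its canonical transcript) encodes a cytokine of the IL-6 family that acts through LIFR and gp130. Its level was 0.47 and 0.4 TPM in WT and 9.62 and 9.18 TPM in CypD KO. In Control it was 0.25 and 0.28 TPM, and in CypD OE 2.46 and 2.16 TPM. No library of CypD KO overlapped WT, and none of CypD OE overlapped Control. Since both WT and both Control libraries were under 1 TPM, the gene entered the test only through the groups in which it was high. By estimated fragments the gene rested on 15.7 to 20 in WT, 382.7 to 427.4 in CypD KO, 9.8 to 11.9 in Control and 101 to 112.5 in CypD OE. On the log2(TPM + 1) scale, which understates the change of low genes, CypD KO exceeded WT by 2.86 (SE 0.14, 95% confidence interval 2.54 to 3.18, limma adjusted p = 1.13e-05). On the same scale CypD OE exceeded Control by 1.39 (SE 0.14, interval 1.06 to 1.71, adjusted p = 0.000392). The CypD OE mean was 8.72 times the Control mean in TPM. Control and WT differed by -0.18 (SE 0.14, interval -0.5 to 0.14, adjusted p = 0.38), which was not past the threshold. The order of the group means was CypD KO, CypD OE, WT and Control, and the last pair did not differ beyond its interval. A pseudocount of 0.1 in place of 1 gave log2 differences of 4.15 for CypD KO and 2.72 for CypD OE.

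*Csf1* (ENSMUSG00000014599, GRCm39 chr3:107648364-107667806, minus strand, 9 exons) encodes macrophage colony-stimulating factor. Its level was 8.63 and 8.02 TPM in WT and 20.22 and 24.29 TPM in CypD KO. It was 7.91 and 7.74 TPM in Control and 8.51 and 8.84 TPM in CypD OE. Both CypD KO libraries stood above the 6 others, which all lay between 7.74 and 8.84 TPM. CypD KO exceeded WT by 1.31 on the log2 scale (SE 0.1, interval 1.07 to 1.56, limma adjusted p = 9.12e-05). The 2 KO libraries themselves differed by more than any other pair for this gene, with a group SD of 2.88 TPM (n = 2) against 0.12 to 0.431 TPM in the other groups. Between CypD OE and Control the difference was 0.13 (SE 0.1, interval -0.11 to 0.38, adjusted p = 0.36), and between Control and WT it was -0.08 (SE 0.1, interval -0.32 to 0.17, adjusted p = 0.621). *Csf1* was the most abundant of the 10 genes in CypD KO, and in WT it was second to *Cxcl10*. A long noncoding RNA on the opposite strand, Gm40121, shares 159 of its 5877 exon bases (2.7%). Whether the counting used strand was not given in the sources used here.

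*Ccl5* (RANTES, ENSMUSG00000035042, GRCm39 chr11:83416602-83425942, minus strand, 3 exons) encodes a chemokine for T cells, monocytes and eosinophils. Its level was 1.09 and 0.29 TPM in WT and 4.8 and 5.67 TPM in CypD KO. It was 0.88 and 1.91 TPM in Control and listed at 0 in both CypD OE libraries. For this short transcript 1 fragment is worth 0.248 to 0.294 TPM, so these levels stand for about 4 and 1 fragments in WT, 18.4 and 20.8 in CypD KO, 3 and 7 in Control and 0 in CypD OE. CypD KO did not overlap any other group, whereas WT and Control overlapped. CypD KO exceeded WT by 1.92 on the log2 scale (SE 0.3, interval 1.21 to 2.63, limma adjusted p = 0.00191), and the mean levels were 5.23 and 0.69 TPM. CypD OE lay below Control by a log2 difference of -1.23 (SE 0.3, interval -1.93 to -0.52, limma adjusted p = 0.0174). This second call rested on about 10 fragments in Control and was lost without Control replicate 2 (log2 difference -0.91, adjusted p = 0.0889) and without either CypD OE library (-1.23, adjusted p = 0.0705). With 3 and 7 fragments against 0, no fold is given. Control and WT differed by 0.51 (SE 0.3, interval -0.2 to 1.22, adjusted p = 0.262).

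*Cxcl10* (IP-10, ENSMUSG00000034855, GRCm39 chr5:92494497-92496748, minus strand, 4 exons) encodes an interferon-inducible chemokine for T and NK cells that carry CXCR3. Its level was 15.19 and 16.12 TPM in WT and 7.23 and 7.58 TPM in CypD KO. It was 7.33 and 9.79 TPM in Control and 14.57 and 12.63 TPM in CypD OE. WT and CypD OE libraries all lay above 12 TPM and CypD KO and Control libraries all below 10 TPM. CypD KO lay below WT by a log2 difference of -0.99 (SE 0.14, interval -1.31 to -0.66, limma adjusted p = 0.00117). Control lay below WT by -0.81 (SE 0.14, interval -1.14 to -0.49, limma adjusted p = 0.00691), a mean 1.83 times lower in TPM. CypD OE exceeded Control by 0.62 (SE 0.14, interval 0.29 to 0.95, limma adjusted p = 0.0121), a ratio of 1.59 in mean TPM. That last call was lost without CypD OE replicate 1 (0.52, adjusted p = 0.0725) and when only the 4 libraries of the comparison were fitted (0.62, adjusted p = 0.0571). *Art3*, on the opposite strand, shares 133 of the 2252 exon bases of *Cxcl10* (5.9%). *Art3* itself was at 7.57 and 5.58 TPM in WT, 3.97 and 1.97 TPM in CypD KO, 5.2 and 8.27 TPM in Control and 13.32 and 14.46 TPM in CypD OE, and its part in the *Cxcl10* values was not tested.

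**Figure D2:**
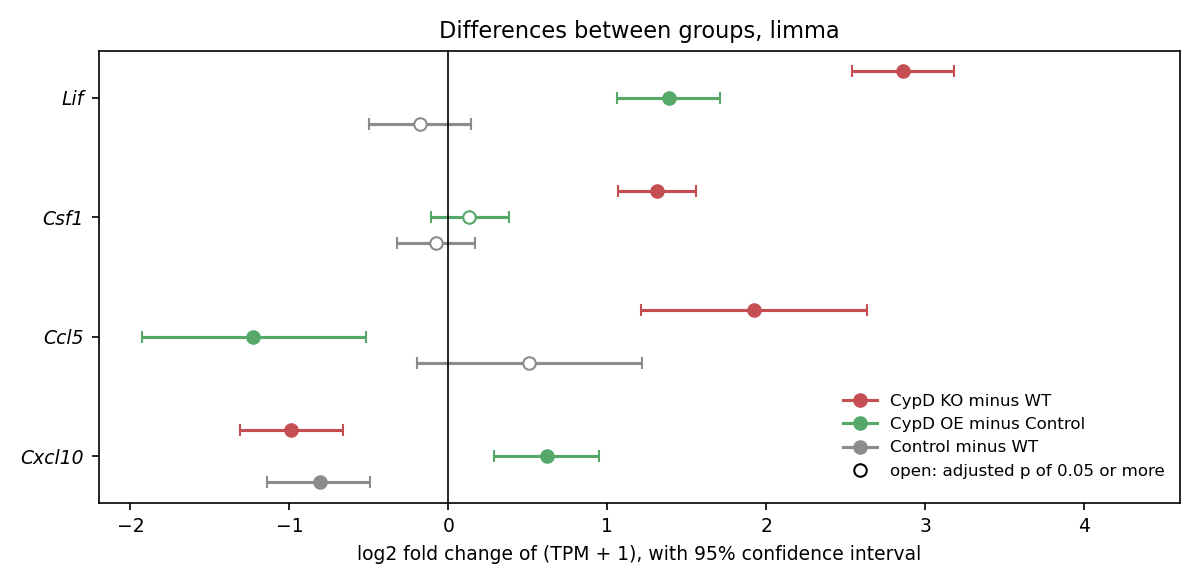
Log2 fold change of (TPM + 1) from limma for the 4 tested genes in the 3 comparisons, with 95% confidence intervals; filled points have an adjusted p under 0.05 and open points do not. *Lif* in CypD KO lies farthest from 0, at 2.86, and *Ccl5* has the widest intervals.

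The other 6 genes stayed low in all 8 libraries. By the rule of 10 or fewer estimated fragments in every library, 5 of them were near the detection limit: *Ccl2*, *Ccl7*, *Cxcl1*, *Il6* and *Tnf*. *Ccl2* (ENSMUSG00000035385, GRCm39 chr11:81926397-81928279, plus strand), which encodes the monocyte chemokine MCP-1, was listed at 0 in every library, where 1 fragment would be worth 0.134 to 0.16 TPM. Its neighbour *Ccl7* (ENSMUSG00000035373, GRCm39 chr11:81936532-81938351, plus strand), the related chemokine MCP-3, was at 0.14 TPM in CypD KO replicate 1, which is 1 fragment, and listed at 0 in the other 7. A value of 0 here says that the transcript was not detected at this depth.

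*Cxcl1* (ENSMUSG00000029380, GRCm39 chr5:91039094-91040974, plus strand), a neutrophil chemokine that acts on CXCR2, was listed at 0 in both WT libraries. It was at 0.68 and 0.12 TPM in CypD KO, 0.13 and 0.29 TPM in Control and 0.22 and 0.05 TPM in CypD OE. The highest value stands for 6 fragments, or 13.2 if all came from the longest transcript. *Il6* (ENSMUSG00000025746, GRCm39 chr5:30218112-30224979, plus strand), the cytokine for which the gp130 family is named, was listed at 0 in WT and was at 0.36 and 0.21 TPM in CypD KO, 0.1 and 0 TPM in Control and 0.16 and 0.04 TPM in CypD OE. Its highest value stands for 3.9 fragments. *Tnf* (ENSMUSG00000024401, GRCm39 chr17:35418357-35420983, minus strand) was at 0 and 0.07 TPM in WT, 0.14 and 0.25 TPM in CypD KO, 0.08 and 0.06 TPM in Control and 0 and 0.13 TPM in CypD OE, with 3.9 fragments at most. For *Cxcl1*, *Il6* and *Tnf* the CypD KO libraries lay above both WT libraries, but all these values stand for a few fragments. Whether the differences exceed counting error was not tested. Separation of 2 from 2 libraries is also weak, since exact permutation cannot go below 0.333. The share of all genes separated in this way was not computed, so these separations carry no weight. Without the filter on low TPM, *Il6* was called higher in CypD KO.

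*Cxcl16* (ENSMUSG00000018920, GRCm39 chr11:70344517-70352620, minus strand), a membrane-bound chemokine for CXCR6 that ADAM10 can release from the surface, was at 0.14 and 0.09 TPM in WT, 0.28 and 0.45 TPM in CypD KO, 0.33 and 0.08 TPM in Control and 0.08 and 0.36 TPM in CypD OE. Its transcript is longer, so these levels stand for 2.5 to 13.7 fragments and it was just above the limit of 10. CypD KO libraries lay above WT libraries, and the Control and CypD OE ranges nearly coincided. The first separation is weak for the same reasons. Exact permutation of 2 against 2 libraries cannot go below 0.333, and the share of all genes separated in this way was not computed. *Med11* on the opposite strand shares 2213 of the 5123 exon bases of *Cxcl16* (43.2%) and *Zmynd15* shares 2132 (41.6%). *Med11* was at 19.14 to 26.18 TPM, far above *Cxcl16*, and without knowledge of the strand setting the reads of *Cxcl16* and its opposite-strand neighbours cannot be told apart.

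**Figure D3:**
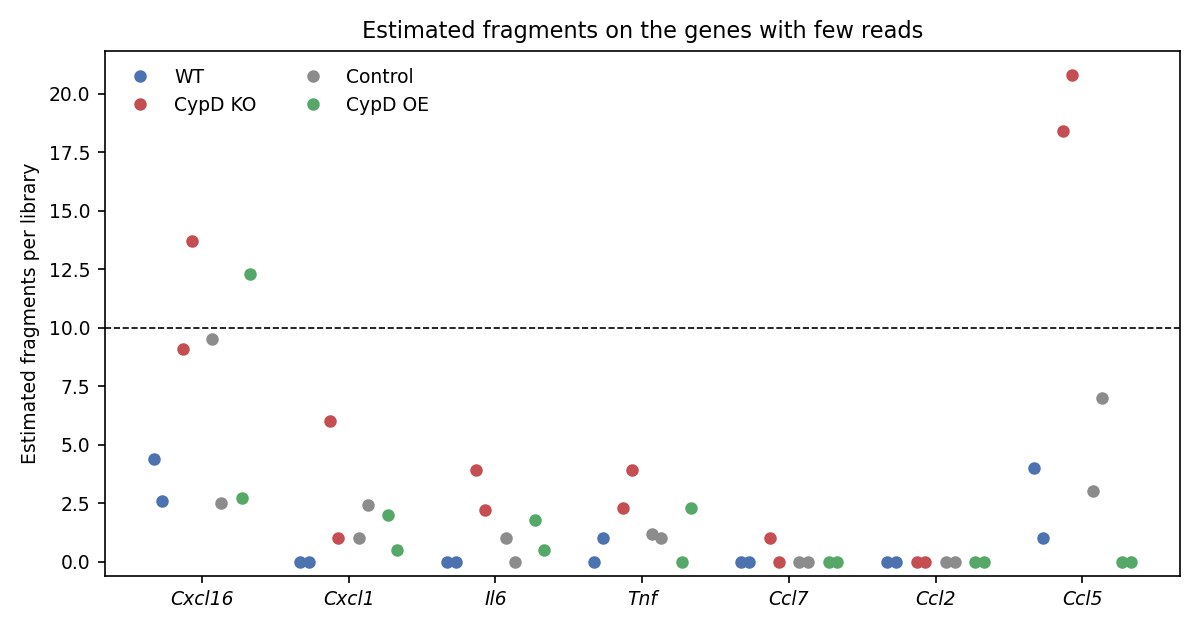
Estimated fragments per library (vertical axis, linear) on the 6 genes under 1 TPM and on *Ccl5*, with each point 1 library and the dashed line at the limit of 10 fragments. *Cxcl1*, *Il6*, *Tnf*, *Ccl7* and *Ccl2* stay at 6 fragments or fewer, *Cxcl16* reaches 13.7, and *Ccl5* passes the line in both CypD KO libraries only.

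The receptors of these ligands were mostly near 0 in the same cells. Of 15 receptor genes, 12 were under 1 TPM in every library and 6 were listed at 0 in all, and the receptors for CSF1 (*Csf1r*) and CXCL10 (*Cxcr3*) were among the 12. The tested 3 were *Tnfrsf1a*, *Il6st* and *Lifr*. *Tnfrsf1a*, the main TNF receptor, was at 44.75 and 40.24 TPM in WT and 67.83 and 63.78 TPM in CypD KO, a log2 difference of 0.62 (SE 0.08, limma adjusted p = 0.00109). At 1% O2 it was at 45.31 and 38.9 TPM in Control and 55.42 and 56.54 TPM in CypD OE, a log2 difference of 0.41 (SE 0.08, limma adjusted p = 0.00961). *Il6st*, which encodes gp130, rose from 21.77 and 23.74 TPM in WT to 30.2 and 28.51 TPM in CypD KO (log2 0.35, SE 0.06, limma adjusted p = 0.00406). It rose from 21.93 and 22.44 TPM in Control to 32.66 and 31.38 TPM in CypD OE (log2 0.51, SE 0.06, limma adjusted p = 0.00126). *Lifr* encodes the chain through which LIF acts together with gp130. Its level was 1.66 and 2.31 TPM in WT and 1.63 and 1.12 TPM in CypD KO. It was 3.53 and 3.21 TPM in Control and 2.27 and 2.23 TPM in CypD OE, and no comparison of it passed the threshold. No receptor was called between Control and WT.

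Of 29 signalling and feedback genes (JAK-STAT, NF-kB and their inhibitors), 28 were tested. In CypD KO 16 were higher and 1 was lower than in WT, with a median log2 difference of 0.42 beside 0.09 over all tested genes. Of all tested genes, 30.1% were called higher and 18.4% lower in that comparison. *Irf9*, a transcription factor of the interferon response, was at 5.12 and 3.34 TPM in WT and 9.75 and 8.8 TPM in CypD KO (log2 0.99, SE 0.18, limma adjusted p = 0.00398), and the NF-kB inhibitor gene *Nfkbib* was lower (-0.73, SE 0.08, adjusted p = 0.000496). In CypD OE against Control 4 of the 28 genes were higher and 7 lower, with a median of -0.08. The shares over all tested genes were 19.0% higher and 18.3% lower. *Tnip1*, an inhibitor of NF-kB signalling, was lower there (log2 -0.76, SE 0.07, limma adjusted p = 0.000399). *Jak2* (0.39, SE 0.08, adjusted p = 0.00946) and *Ripk1*, a kinase at the TNF receptor (0.38, SE 0.07, adjusted p = 0.0061), were higher. Between Control and WT 5 were higher and 3 lower, with a median of 0.05, beside 12.1% higher and 12.1% lower of all tested genes. *Relb* (0.62, SE 0.14, adjusted p = 0.0208) was higher, and the adaptor *Myd88* (-0.65, SE 0.15, adjusted p = 0.0228) and *Nfkbib* (-0.32, SE 0.08, adjusted p = 0.036) were lower. Other genes share 25.3% of the exon bases of *Tnip1*, 16.2% of those of *Myd88* and up to 14.3% of those of *Nfkbib*. The values of these 3 genes are therefore uncertain, by an amount that was not measured.

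Cytokines are also set by release from the membrane and by decay of their transcripts, and all 13 genes of this list were tested. In CypD KO 4 were higher and 3 lower than in WT, with a median log2 difference of 0.13 beside 0.09 over all genes. Of all tested genes, 30.1% were called higher and 18.4% lower, so these counts lie near that share. *Adam10*, a sheddase for CXCL16, was at 82.43 and 86.04 TPM in WT and 147.26 and 140.68 TPM in CypD KO (log2 0.77, SE 0.04, limma adjusted p = 2.25e-05). *Zfp36*, the gene for tristetraprolin, which binds AU-rich elements and speeds the decay of cytokine transcripts such as *Tnf*, was higher (0.74, SE 0.17, adjusted p = 0.0108). *Hnrnpd* (-0.79, SE 0.04, adjusted p = 2.29e-05) and *Khsrp* (-0.31, SE 0.03, adjusted p = 0.00032), which encode other binders of AU-rich elements, were lower. In CypD OE 4 were higher and 2 lower than in Control, with a median of 0.03, beside 19.0% higher and 18.3% lower of all tested genes. *Zfp36* (0.74, SE 0.17, adjusted p = 0.0148) and its relative *Zfp36l2* (0.59, SE 0.05, adjusted p = 0.000246) were higher there, and a further relative, *Zfp36l1* (-0.83, SE 0.05, adjusted p = 7.64e-05), and *Adam17*, the TNF sheddase (-0.48, SE 0.05, adjusted p = 0.000717), were lower. Between Control and WT 2 were higher and 2 lower, with a median of -0.1, beside 12.1% higher and 12.1% lower of all tested genes. *Zfp36l1* (0.59, SE 0.05, adjusted p = 0.00062) and *Adam17* (0.28, SE 0.05, adjusted p = 0.0112) were higher, and *Zfp36l2* (-0.35, SE 0.05, adjusted p = 0.0043) and *Adam10* (-0.19, SE 0.04, adjusted p = 0.0224) lower.

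Few other chemokines were expressed. Of 30 further chemokine genes, 20 were listed at 0 in every library and 27 were under 1 TPM in every library, which left 3 that were tested. *Ccl27a*, a skin chemokine, was at 4.73 and 4.22 TPM in WT and 10.36 and 9.56 TPM in CypD KO (log2 1.0, SE 0.1, limma adjusted p = 0.000232). It was also higher in Control than in WT (0.45, SE 0.1, adjusted p = 0.0173). *Ccl27a* has near-identical copies in the mouse genome, and an unnamed noncoding RNA shares 25.7% of its exon bases, so its values are uncertain. *Ccl25*, known for its role in the thymus and gut, was at 14.57 and 11.77 TPM in WT and 19.19 and 19.4 TPM in CypD KO (0.53, SE 0.13, adjusted p = 0.0143), and at 16.53 and 13.09 TPM in Control and 21.24 and 21.13 TPM in CypD OE (0.5, SE 0.13, adjusted p = 0.0228). *Elavl1* on the opposite strand shares 4.8% of the exon bases of *Ccl25* and had a mean of 140 TPM in WT, so the *Ccl25* values are uncertain too. *Cxcl9*, which shares the receptor of *Cxcl10*, was listed at 0 in every library, and *Cxcl11* reached 0.2 TPM at most.

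Of 29 other cytokine genes, 10 were tested and 7 were listed at 0 in all libraries. In CypD KO 8 of the 10 were higher and 1 lower than in WT, beside 30.1% higher and 18.4% lower of all tested genes. *Clcf1* and *Il11* passed the filter only through the CypD KO libraries, so the count carries no weight of its own. For the same reason no median is given. *Clcf1*, like *Lif* a cytokine of the IL-6 family, went from 0.19 and 0.47 TPM in WT to 8.15 and 8.04 TPM in CypD KO (log2 2.78, SE 0.17, limma adjusted p = 3.45e-05). Gm45928 on the same strand shares 8.2% of the exon bases of *Clcf1*. *Il33*, an alarmin of the IL-1 family, went from 1.38 and 1.49 TPM to 10.01 and 7.99 TPM (2.03, SE 0.15, adjusted p = 6.62e-05). *Il11*, a further gp130 cytokine, named after its values were seen, went from 0.26 and 0.24 TPM to 3.93 and 3.45 TPM (1.91, SE 0.18, adjusted p = 0.000212). *Tslp* was lower, at 1.35 and 1.04 TPM in WT and 0.55 and 0.49 TPM in CypD KO (-0.53, SE 0.17, adjusted p = 0.0416).

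In CypD OE against Control 3 of the 10 were higher and 4 lower, beside 19.0% higher and 18.3% lower of all tested genes. *Il33* was at 1.12 and 1.35 TPM in Control and 3.02 and 2.79 TPM in CypD OE (log2 0.81, SE 0.15, limma adjusted p = 0.0056). *Clcf1* was at 0 and 0.05 TPM in Control and 0.05 and 0.1 TPM in CypD OE, and *Il11* was at 0.28 and 0.26 TPM in Control and 0.14 and 0.42 TPM in CypD OE. Neither was called (limma adjusted p = 0.795 for *Clcf1* and 0.996 for *Il11*), whereas *Lif* was. *Tnfsf9*, the ligand of the T cell receptor 4-1BB, was at 21.12 and 21.09 TPM in Control and 6.78 and 5.48 TPM in CypD OE (-1.64, SE 0.14, adjusted p = 0.0002). A noncoding RNA on the opposite strand, Gm11110, shares 14.4% of the exon bases of *Tnfsf9*. The *Tnfsf9* values are therefore uncertain, by an amount that was not measured. *Ctf1*, another member of the IL-6 family, was at 1.54 and 1.56 TPM in Control and 0.07 and 0 TPM in CypD OE (-1.3, SE 0.42, adjusted p = 0.0497), but *Ctf2* on the opposite strand shares 26.3% of its exon bases. Between Control and WT 2 were higher and 1 lower, beside 12.1% higher and 12.1% lower of all tested genes. *Tnfsf9* (1.44, SE 0.14, adjusted p = 0.000705) and *Mif*, from 883.58 and 844.23 TPM in WT to 1595.02 and 1664.06 TPM in Control (0.91, SE 0.04, adjusted p = 1.93e-05), were higher. *Mif* has many processed pseudogenes, so its reads may be divided.

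**Figure D4:**
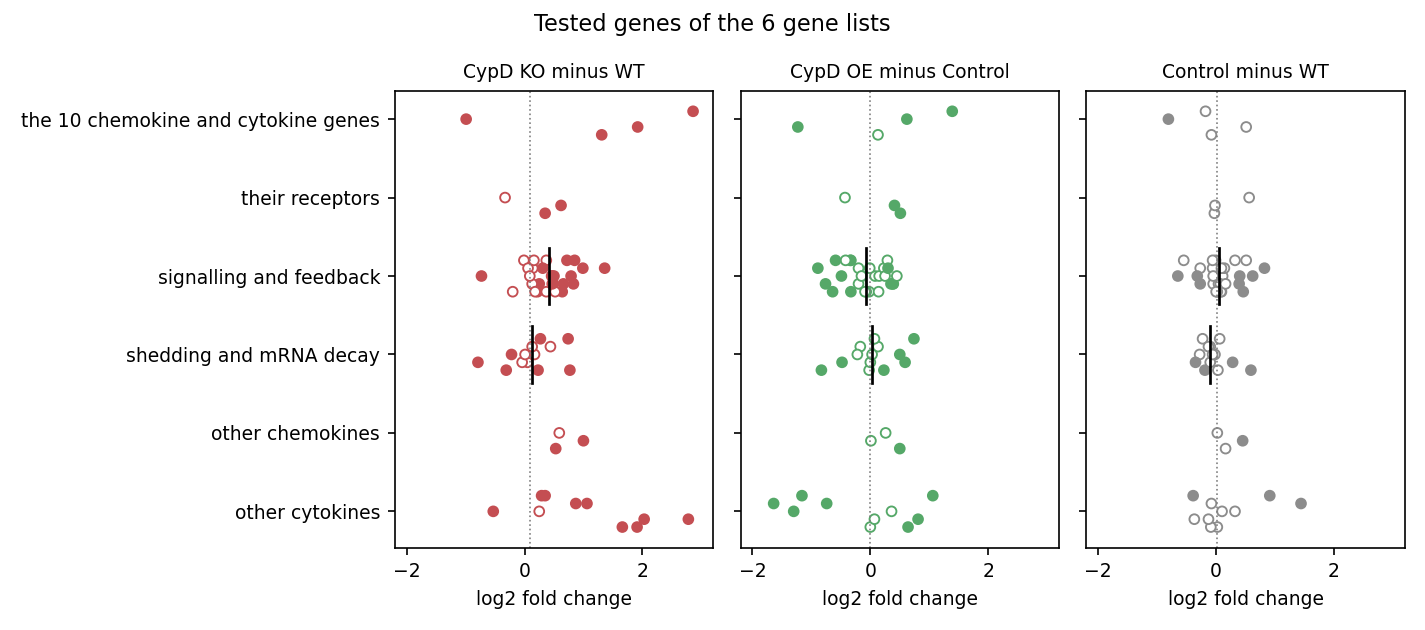
Log2 fold change of (TPM + 1) of each tested gene, by gene list and comparison; filled points have a limma adjusted p under 0.05, bars mark the median of the 2 lists of which nearly all genes were tested and the dotted line the median of all tested genes. In CypD KO minus WT the median of the signalling genes is 0.42, and the dotted line is at 0.09.

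Markers of other cell types moved with some of these genes. The 9 myeloid markers summed to 3.67 to 4.48 TPM in WT, 24.2 to 25.6 TPM in CypD KO, 4.68 to 4.9 TPM in Control and 1.15 to 2.29 TPM in CypD OE, an order shared with *Ccl5*. Nearly all of that sum was *Cd68*, a lysosomal protein gene, at 21.85 and 23.33 TPM in CypD KO. Of the 9, 7 were under 1 TPM in every library and 2 were listed at 0 in all, and *Csf1r* did not pass 0.41 TPM. The 6 fibroblast markers summed to 15.4 to 17.7 TPM in WT, 34 to 36.9 TPM in CypD KO, 19 to 21 TPM in Control and 9.21 to 11.3 TPM in CypD OE. Within that list *Postn* rose in CypD KO (log2 1.91, SE 0.09, limma adjusted p = 9.47e-06) and *Col1a2* fell (-1.79, SE 0.27, adjusted p = 0.00176). The 5 endothelial markers summed to at most 4.21 TPM. The part of these markers in the chemokine and cytokine results was not tested.

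The genes whose profile over the 8 libraries was most like each called gene were found by the mean absolute difference of centred log2(TPM + 1) values. For *Lif* they were *Myof* (0.172), a membrane-repair protein gene, *Ccn2* (0.18), which encodes connective tissue growth factor, and the protease gene *Prss23* (0.224), against a median of 1.05 over all tested genes. *Ccn2* was at 9.01 and 11.72 TPM in WT, 120.79 and 121.94 TPM in CypD KO, 10.58 and 12.12 TPM in Control and 29.94 and 30.02 TPM in CypD OE. In all, 2 genes lay within 0.2 of *Lif*.

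For *Csf1* the nearest genes were *Tgfa* (0.0643), a growth factor of the EGF family, *Dstn* (0.0679), an actin-severing protein gene, and *Cd248* (0.0715), and 371 genes lay within 0.2. *Dstn* was at 181.9 and 185.61 TPM in WT and 456.66 and 449.66 TPM in CypD KO. For *Ccl5* they were *Hacd4* (0.168), *Eno2* (0.225), a glycolytic enzyme gene, and *Cav1* (0.225), which encodes caveolin-1. *Eno2* was at 8.23 and 6.59 TPM in WT, 31.44 and 34.88 TPM in CypD KO, 7.53 and 10.32 TPM in Control and 2.35 and 3.06 TPM in CypD OE.

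For *Cxcl10* the nearest genes were *Mcrip2* (0.0658), *Igfbp4* (0.0714), which encodes a binder of insulin-like growth factors, and *Bcor* (0.0889), which encodes a transcriptional corepressor, with 186 genes within 0.2. *Igfbp4* was at 89.42 and 84.88 TPM in WT, 47.75 and 47.94 TPM in CypD KO, 47.24 and 55.29 TPM in Control and 84.29 and 81.86 TPM in CypD OE. These genes were chosen for their likeness, so a shared order of groups is a description and lends the chemokine and cytokine values no support. A fixed distance such as 0.2 is also stricter for a gene that varies more.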

How the data were processed

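Total RNA of B16F10 cells was depleted of ribosomal RNA and sequenced in paired-end reads. Per the methods and labels, the authors used Cutadapt 3.4 for trimming, STAR 2.7.8a for alignment to GRCm39 and RSEM 1.3.1 for quantification. TPM as deposited have 2 decimals and were scaled by the authors to the same total in each library. A rise of abundant transcripts therefore lowers all other values, and reads that match several genes are divided. The authors' own tests used DESeq2 1.26.0 on read counts, which were not used here. All 8 columns were mapped to samples by name, and 0 were left out. Of 55414 genes, 54749 (98.8%) matched GENCODE vM39 (GRCm39), the source of positions, and 30708 were listed at 0 in every library.

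Genes that reached 1 TPM in 2 or more libraries were compared on the log2(TPM + 1) scale by limma 3.58.1 (R 4.3.3, lmFit, eBayes with trend). The model held 1 mean per group and 1 spread for the 8 libraries. Tests were two-sided, with Benjamini-Hochberg adjustment over 13526 genes and a threshold of 0.05. Exact permutation of 2 against 2 libraries cannot go below 0.333 and was not used. The depth of a library was estimated by choosing a fragment length (200 to 210 bases) and the worth of 1 fragment that brought low values closest to whole numbers. The share within 0.15 of whole was 83.6% to 86.4%, and would be 30% if values were spread evenly. Between 17942 and 19692 genes were above 0 per library. Fragments of a gene are estimates for its canonical transcript and cover counting error only.

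The 10 genes and all gene lists were chosen with earlier results of these data known. Named from the lists are, per comparison, the 2 genes called higher and the 2 called lower with the largest change. *Ppif* and the 3 nearest profiles of each called gene are also named, and exceptions are stated; some genes that the rule names are not reported here. Replicates agreed within a median absolute log2 difference of 0.0931 to 0.0993. Deviations of libraries with the same replicate number correlated at -0.0295 to 0.108, so the numbers did not pair the libraries. Scripts were tested on simulated data. Alternatives were a pseudocount of 0.1, no filter, a filter of 5 TPM, median-of-ratios scaling, the 4 libraries of a comparison alone, a replicate block, no trend, and leaving out each library.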

Additional observations from a re-analysis of the deposited data

How the results depend on the processing

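Over 15 alternatives per comparison, no difference of the 4 tested genes changed sign. The calls of *Lif* and *Csf1*, and those of *Ccl5* and *Cxcl10* in CypD KO against WT and of *Cxcl10* in Control against WT, stayed past the threshold under each alternative that tested them. With the 4 libraries of CypD OE and Control alone, 1 of the genes was called higher in place of 2 (*Cxcl10* was lost), and leaving out single libraries gave 1 to 2. With a filter of 5 TPM, 0 were called lower in CypD OE, because *Ccl5* was no longer tested, and leaving out single libraries gave 0 to 1. For *Ccl5* in CypD OE against Control the log2 difference ranged from -3.81 (pseudocount 0.1) to -0.91, with adjusted p from 0.00349 to 0.0889; for *Cxcl10* it ranged from 0.43 to 0.81, with adjusted p from 0.00669 to 0.0725. In CypD KO against WT, *Lif* ranged from 2.79 to 4.15, *Ccl5* from 1.57 to 2.96 and *Csf1* from 1.19 to 1.44. Without a filter 4 genes were called higher in CypD KO (*Il6* was added), and with a filter of 5 TPM 2 (*Ccl5* was not tested). With the replicate block, 3 of the genes were called higher and 1 lower in CypD KO, 2 and 1 in CypD OE, and 0 and 1 in Control, as without it; over all genes it called 3894 higher and 2391 lower in CypD KO against WT. Depth limits the genes of few fragments: *Ccl5* in Control and WT, and *Ccl2*, *Ccl7*, *Cxcl1*, *Il6*, *Tnf* and *Cxcl16* everywhere. With 2 libraries per group the spread of single genes is borrowed from all genes. Where leaving out a library left 1 in its group, that library was assumed to vary like the other groups. The cause of the changes with the libraries fitted was not tested.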
